A study of Mus musculus with 2 samples.

Results

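Among the cells of the mouse rib callus at 4 days post injury (dpi), 1010 of 21259 were Spp1 Gpnmb Cd36 macrophages, 337 in the control library and 673 in the Smo cKO library. They were selected on their own expression values. In both matrices, cells were kept that had at least 200 detected genes, under 10% of their UMIs (unique molecular identifiers, each standing for 1 captured transcript) on mitochondrial genes, at least 3 UMIs of the myeloid adaptor genes Tyrobp and Fcer1g together, under 2% of UMIs on Col1a1, Col1a2 and Col3a1, and 0 UMIs of Siglech, Cd3g and Nkg7. The 5044 myeloid cells that remained were scored on 5 sets of 4 genes, each score being the mean z-score of ln(1 + UMIs per 10000). A cell was counted here when the set that holds Spp1, Gpnmb and Cd36 had its highest score and that score was above 0.3. The competing sets were Ccl8, Mrc1, Fcrls and C1qa (Ccl8 Mrc1 C1q macrophages), H2-Eb1, H2-Ab1, Cd74 and Ccr7 (MHC class II dendritic-like cells), Acp5, Ctsk, Atp6v0d2 and Mmp9 (osteoclast lineage cells), and S100a8, S100a9, Ngp and Retnlg (neutrophils). Because the cells were chosen by these values, differences between the classes are a description of what was chosen, and no test was made of them.

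The control animals were Sox9:CreER;R26:tdT;Smo f/+ and the Smo cKO animals Sox9:CreER;R26:tdT;Smo f/f, so that both groups carried the tamoxifen-inducible Cre under Sox9, the tdTomato reporter and at least 1 floxed Smo allele. Mice of both sexes, 8 to 12 weeks old, were used, tamoxifen was given on 3 consecutive days in the week before surgery, and a rib segment of 3 mm was resected. Callus cells of 3 animals were pooled for each genotype, giving 1 library each. A difference between the libraries therefore has no replicate check and cannot be told apart from a difference between animals, dissections or library preparations, and the intervals given with values cover counting error only.

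Macrophages that enter a wound from the blood take up dead cells, red cells and matrix debris, break them down in lysosomes, and secrete cytokines, chemokines and matrix proteins. Spp1 encodes osteopontin, a secreted matrix glycoprotein that binds integrins and is abundant in healing bone. Gpnmb encodes a transmembrane glycoprotein of lysosomes and phagosomes, and Cd36 a scavenger receptor for oxidized lipoprotein and dying cells. On GRCm38, Spp1 and Cd36 lie on chromosome 5 (104435118 to 104441050, plus strand, and 17781690 to 17888801, minus strand) and Gpnmb on chromosome 6 (49036546 to 49070929, plus strand).

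The promoters of Gpnmb and of the listed lysosomal genes, enzymes, membrane proteins and their regulators, were searched for CACGTG, the E-box bound by the Mitf and Tfe family that drives lysosomal genes, and for TGANTCA, the AP-1 element, on both strands. The sequences are those of RefSeq on GRCm38.p6, from 250 bases before to 50 bases after each annotated start, written 5′ to 3′ on the strand of the gene with the matches in capitals. Ctsd and Psap are shown beside Gpnmb as the lysosomal genes whose levels differed most in the control library between cells with and without it, and Lamp1 for its number of matches, a choice made after these were seen. Gpnmb is given as chr6:49036268-49036567 (plus strand), Ctsd as chr7:142387778-142388077 (minus strand), Psap as chr10:60277378-60277677 (plus strand) and Lamp1 as chr8:13158911-13159210 (plus strand).
Gpnmb: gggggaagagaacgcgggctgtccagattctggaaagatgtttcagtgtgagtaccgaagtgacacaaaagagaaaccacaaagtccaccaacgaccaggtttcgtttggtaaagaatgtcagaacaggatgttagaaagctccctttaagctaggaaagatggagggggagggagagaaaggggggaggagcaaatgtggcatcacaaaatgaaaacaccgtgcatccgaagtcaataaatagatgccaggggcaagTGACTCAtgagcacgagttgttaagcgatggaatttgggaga
Ctsd: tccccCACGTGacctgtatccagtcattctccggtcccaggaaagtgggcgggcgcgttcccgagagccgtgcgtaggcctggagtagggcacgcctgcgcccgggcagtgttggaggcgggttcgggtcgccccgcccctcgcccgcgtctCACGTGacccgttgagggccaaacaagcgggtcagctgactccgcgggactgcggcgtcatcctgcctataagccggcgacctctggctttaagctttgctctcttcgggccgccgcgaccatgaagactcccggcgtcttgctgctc
Psap: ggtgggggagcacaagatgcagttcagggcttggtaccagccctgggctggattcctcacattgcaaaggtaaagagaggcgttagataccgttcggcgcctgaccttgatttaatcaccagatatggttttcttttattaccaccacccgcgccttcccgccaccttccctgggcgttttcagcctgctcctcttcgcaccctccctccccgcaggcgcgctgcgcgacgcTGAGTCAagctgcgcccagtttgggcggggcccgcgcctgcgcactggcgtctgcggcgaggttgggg
Lamp1: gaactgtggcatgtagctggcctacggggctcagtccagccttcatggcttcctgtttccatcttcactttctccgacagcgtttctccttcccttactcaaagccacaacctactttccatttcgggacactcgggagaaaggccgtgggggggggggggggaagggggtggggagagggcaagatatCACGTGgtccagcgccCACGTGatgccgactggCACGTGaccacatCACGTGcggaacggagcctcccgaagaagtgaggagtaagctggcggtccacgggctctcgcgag
Gpnmb held 1 TGANTCA match, which began 8 bases past the start, and Psap held 1 at position -18. Ctsd, which encodes cathepsin D, held 2 E-boxes and Lamp1, which encodes an abundant lysosomal membrane protein, held 4. Of the 20 listed lysosomal genes, 16 were matched in the table, and 6 of them (37.5%) held CACGTG in at least 1 of their promoters, against 8.09% of all 27025 genes. TGANTCA was found for 1 of the 16 (6.25%), against 8.97% of all genes. By promoter, CACGTG was in 24.0% of 25 for the list and in 7.15% of all 32851, and TGANTCA in 4.0% and 7.81%, and matches of the 2 motifs overlapped in 20. The windows of Spp1 and Cd36 held neither motif. A match is a description of the letters and was not tested as a binding site.

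The control library held 10747 cells with 105367110 UMIs (median 7743 UMIs per cell) and the Smo cKO library 10512 cells with 112700220 UMIs (median 7702.5). Myeloid cells kept for scoring numbered 2370 (22.1% of the library) and 2674 (25.4%). The Spp1 Gpnmb Cd36 macrophages were shallower than the libraries as a whole, with medians of 2655 and 3181 UMIs and 1092 and 1196 genes per cell, and held 1118974 and 2622329 UMIs in all. No doublet caller was run and the rule has no upper limit on genes. More than 2000 genes were detected in 18 control cells (5.34%) and 57 Smo cKO cells (8.47%). The libraries shared 613 cell barcodes (5.70% and 5.83% of their cells), of which 4 and 9 belonged to Spp1 Gpnmb Cd36 macrophages and 1 to such a cell in both libraries. Between the cells that shared a barcode, the deeper had a median of 59.3 times the UMIs of the shallower.

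The label of macrophage was borne out by genes that the rule did not score. All 12 listed macrophage identity genes were detected in both libraries. Summed over the cells of a library and divided by their total UMIs, Lyz2, which encodes lysozyme, was at 8918 CPM (UMIs of the gene for every 1000000 UMIs of the cells) among control cells and at 9625 among Smo cKO cells. Wherever a pair of values follows, the first is from the control library and the second from the Smo cKO library. Cd68 was at 376 and 449 CPM, Csf1r, the receptor for the macrophage growth factor CSF1, at 291 and 250, and Adgre1, which encodes F4/80, at 178 and 170. In T cells of the same libraries, taken as cells with at least 2 UMIs of Cd3d, Cd3e and Cd3g and 0 of Tyrobp and Fcer1g (41 and 82 cells), Lyz2 was at 29.6 and 37.6 CPM and Csf1r at 0 UMIs. Asking for 0 UMIs of these adaptor genes also favours droplets with little free myeloid RNA. Of 197 genes compared, 86 were in T cells at 50% or more of the level in the macrophages in at least 1 library. Among genes of other cells, Cd79a, Ms4a1, Cd8a, Gzma, Cxcr2, Xcr1, Clec9a and Oscar had 0 UMIs in both libraries, and Cd3e was at 0.894 and 1.14 CPM. Other members of the same lists were present, Il7r at 106 and 85.4 CPM, S100a8 at 56.3 and 68.6 and Nfatc1 at 41.1 and 36.6. Fibroblast transcripts were present, Col3a1 being at 1083 and 956 CPM, with a UMI in 82.2% and 80.7% of the macrophages. T cells held 4254 and 2806 CPM of Col3a1, with a UMI in 61.0% and 67.1% of them. The rule held collagen under 2% of a macrophage's UMIs and T cells had no such limit, so the lower level in macrophages partly follows from the rule. The part of free RNA in it was not tested.

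These cells are a range of a score and not a bounded type. Median scores were 0.934 and 1.02, with 10th and 90th percentiles of 0.420 and 1.85 in the control and 0.460 and 1.99 in the Smo cKO library. Within 0.1 of the threshold lay 25 control cells (7.42%) and 44 Smo cKO cells (6.54%), and the score for Ccl8, Mrc1, Fcrls and C1qa was also above 0.3 in 59 (17.5%) and 154 cells (22.9%). Over both libraries, the cells scoring 0.3 to 0.4 held 1813 CPM of Spp1, 133 of Gpnmb and 136 of Cd36. Cells of this set's highest score at 0.2 to 0.3, just outside (28 and 41 cells), held 2350, 106 and 113 CPM. Genes of the other sets were infrequent with the exception of C1qa, a complement subunit of most tissue macrophages, which had a UMI in 72.7% and 71.2% of the cells. Acp5 was found in 28.2% and 27.3%, and Mrc1 in 23.4% and 26.9%.

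Spp1 Gpnmb Cd36 macrophages made up a larger share of the myeloid cells in the Smo cKO library. They were 337 of 2370 cells in the control (14.2%, with an exact Clopper-Pearson range of 12.8 to 15.7) against 673 of 2674 for Smo cKO (25.2%, 23.5 to 26.9). The shares lay 10.9 percentage points apart (8.77 to 13.1 by Newcombe's method). Of all cells in the library they were 3.14% and 6.40%. Ccl8 Mrc1 C1q macrophages were also a larger share in the Smo cKO library, at 20.1% against 24.1%, whereas MHC class II cells were at 21.5% against 12.2% and osteoclast lineage cells at 18.1% against 9.87%. Among both macrophage classes together, the Spp1 Gpnmb Cd36 cells were 41.4% of 814 control and 51.1% of 1318 Smo cKO cells, 9.66 points apart (5.31 to 13.9).

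**Figure D1:**
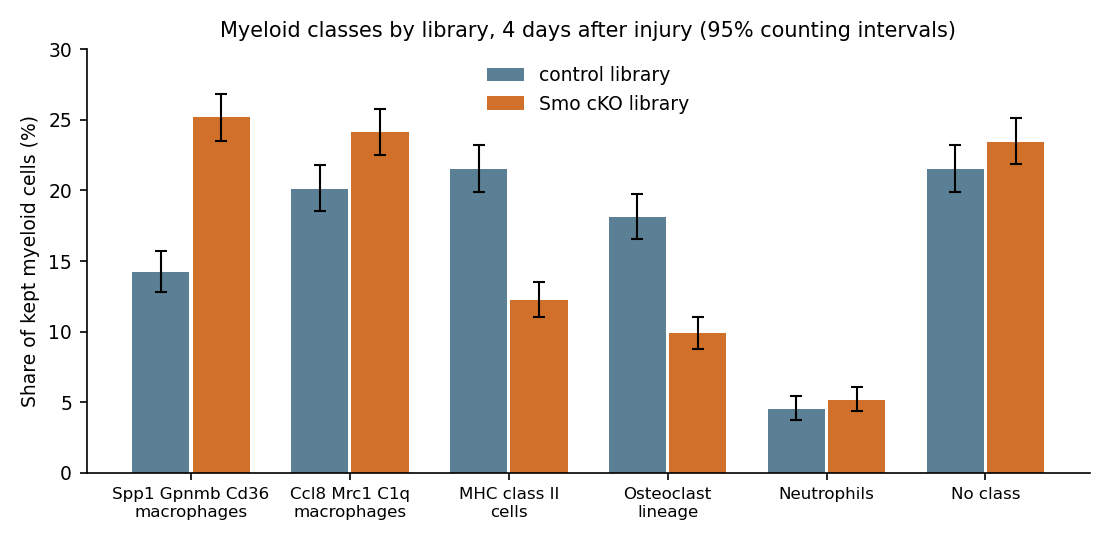
Share of kept myeloid cells (%) in each of the 5 scored classes and in none of them, for the control (blue) and Smo cKO (orange) libraries, with Clopper-Pearson intervals that cover counting error only. The Spp1 Gpnmb Cd36 macrophages stand at 14.2% and 25.2%, and the MHC class II and osteoclast lineage cells lie lower in the Smo cKO library.

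The size of this difference varied with how the scores were scaled and, to a lesser extent, with Spp1 in the score. With z-scores taken within each library, the shares were 17.7% and 22.0%, 4.27 points apart. Such scaling takes out a shift of a gene in all myeloid cells, but also part of any difference in the share itself. Which of these lowered the difference was not tested. With Spp1 left out of the score, the shares were 15.1% and 23.2%, 8.08 points apart (5.91 to 10.2). Without the barcodes found in both libraries, 333 and 665 cells remained, at 14.3% and 25.5%.

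Spp1 was at 4081 and 8188 CPM, Gpnmb at 445 and 466, and Cd36 at 426 and 373. Of these 3, only Spp1 differed 2-fold between the libraries, the log2 ratio being 1.00 (exact Poisson interval 0.96 to 1.05). Values for Gpnmb and Cd36 were 0.07 (-0.09 to 0.22) and -0.19 (-0.35 to -0.03), and both changed sign in some of the 14 alternative ways of choosing or summing the cells. Spp1 stayed between 0.999 and 1.41, so that its lowest value was just short of 2-fold. As the rule scored these genes, their ratios describe the chosen cells. Spp1 was higher in the Smo cKO library in other cells as well, at 935 and 2357 CPM in Ccl8 Mrc1 C1q macrophages, 246 and 542 CPM in osteoclast lineage cells, 343 and 468 CPM over all cells outside the myeloid ones, and 29.6 and 159 CPM in T cells. The T cell value of the Smo cKO library was 1.94% of the level in the macrophages, and whether it was free RNA or their own expression was not tested.

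Within the class these genes were found in most but not all cells. Spp1 was detected in 94.96% of control and 97.5% of Smo cKO cells, Cd36 in 66.5% and 63.7%, and Gpnmb in 51.0% and 57.4%. In T cells, at median depths of 1414 and 1562.5 UMIs, Gpnmb was detected in 0% and 1.22% of cells, Cd36 in 2.44% and 0%, and Spp1 in 7.32% and 18.3%. With each cell thinned to 1000 UMIs, shares in the macrophages were 83.5% and 90.1% for Spp1, 31.8% and 32.3% for Gpnmb and 34.6% and 31.2% for Cd36, 10 and 7 shallower cells being left out. Ccl8 Mrc1 C1q macrophages, thinned alike, had 38.04% and 60.5% for Spp1, 8.70% and 8.35% for Gpnmb and 3.26% and 3.15% for Cd36. Since these genes were scored, the shares describe the cells chosen.

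Gpnmb and Cd36 were found together less often than the product of their shares, in 31.5% of control cells against 33.9% and in 34.9% of Smo cKO cells against 36.6%. Thinned to 1000 UMIs they coincided in 8.87% against 10.99% and in 8.71% against 10.1%. Pairs with Spp1 lay near the product, Spp1 and Gpnmb being found together in 49.3% against 48.5% and in 56.0% against 55.9%, and Spp1 and Cd36 in 63.2% against 63.1% and in 62.1% against 62.1%. The rule itself lowers such overlap, since a cell can pass on some of the genes alone, so this is given as a description.

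Compared with Ccl8 Mrc1 C1q macrophages of the same library, the Spp1 Gpnmb Cd36 macrophages had more RNA of Mmp12, Cxcl3 and Il1b and of glycolysis and hypoxia genes, and less RNA of Ccl12, Selenop and the complement gene C1qb. Mmp12, which encodes macrophage elastase, had the highest ratio outside the rule genes. It was at 55.4 and 108 CPM in the Spp1 Gpnmb Cd36 cells of the control and Smo cKO libraries and at 2.98 and 8.07 CPM in the Ccl8 Mrc1 C1q cells, log2 ratios of 4.22 and 3.75. Cxcl3, a ligand of the neutrophil receptor CXCR2, was at 400 and 596 against 67.0 and 92.4 CPM, and Il1b, the cytokine interleukin-1β, at 166 and 343 against 42.4 and 60.1 CPM. Il1b was higher still in MHC class II cells, at 760 and 1813 CPM, and in neutrophils, at 834 and 610 CPM. Further genes with high ratios were Rnf128, an E3 ubiquitin ligase (log2 ratios 2.51 and 2.28), Cav1, the caveolae protein (2.60 and 2.16), Sdc1, the heparan sulfate proteoglycan syndecan-1 (2.54 and 2.03), Slpi, a secreted inhibitor of leukocyte proteases (2.57 and 1.92), Pdpn, the membrane glycoprotein podoplanin (2.04 and 1.82), and Adam8, a metalloprotease of leukocytes (1.76 and 1.76). In T cells, Cav1 stood at 69.1 and 83.5 CPM, Sdc1 at 118 and 71.0 and Pdpn at 128 and 66.8, while Mmp12, Rnf128 and Slpi had 0 UMIs there. Il7r, otherwise the interleukin-7 receptor of lymphocytes, was at 106 and 85.4 against 29.8 and 22.6 CPM with Cd3e near 0. Some of these genes were higher in other classes. Sdc1 was at 191 and 200 CPM in osteoclast lineage cells, against 99.2 and 56.1 here. Slpi was at 1706 and 416 CPM in neutrophils, against 185 and 247 here. Il7r was at 148 and 187 CPM in MHC class II cells.

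At or past 2-fold in both libraries were 43 of 2293 genes on the higher side (1.88%) and 74 on the lower side (3.23%), among genes at 50 CPM or more in at least 1 of the classes in both libraries. The median gene stood at log2 ratios of -0.01 and 0.05. Of 15 glycolysis and hypoxia genes that could be compared, 6 passed 2-fold on the higher side and 0 on the lower, all 15 were above 0 in both libraries, and their medians were 1.02 and 0.92. Slc16a3, the lactate exporter, was at 156 and 108 against 35.7 and 33.9 CPM. Ero1l, an oxidase of the endoplasmic reticulum raised in hypoxia, was at 143 and 118 against 36.5 and 35.5 CPM, and Bnip3, a mitophagy receptor raised in hypoxia, at 189 and 166 against 51.3 and 56.5 CPM. Pgk1, an enzyme of glycolysis, was at 436 and 426 against 160 and 187 CPM. T cells expressed this list too, with Pgk1 at 375 and 372 CPM, and the part of free RNA in it was not tested. Osteoclast lineage cells held as much, the whole list summing to 5457 and 6173 CPM there and to 5740 and 5783 CPM here. Over those cells, 5 of the 15 genes passed 2-fold, 9 were above 0 in both libraries and 6 below. Slc16a3 was higher in neutrophils, at 235 and 174 CPM.

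Genes of heme and iron handling were abundant. Ftl1 and Fth1, the ferritin chains that store iron, were at 38127 and 37281 CPM and at 37469 and 33039 CPM, and T cells held 2823 and 3341 CPM and 5112 and 3762 CPM. Of 13 genes of this list that could be compared, 2 passed 2-fold over the Ccl8 Mrc1 C1q cells and 11 were above 0 in both libraries (medians 0.50 and 0.60). The 2 were Hmox1 and Slc7a11. Hmox1, which opens the heme ring, was at 4871 and 3616 against 2066 and 1551 CPM. Slc7a11, the cystine importer, was at 473 and 251 against 182 and 93.6 CPM. It was higher in MHC class II cells, at 685 and 402 CPM, and in neutrophils, at 851 and 275 CPM. Lysosomal genes were as abundant in both classes. Their summed level was 20322 and 21485 CPM here and 17993 and 19037 CPM in the Ccl8 Mrc1 C1q cells, and of 16 genes only Ctsl, which encodes cathepsin L, passed 2-fold, at 1402 and 1469 against 546 and 557 CPM. The regulators Mitf, Tfec and Tfeb were between 16.4 and 44.7 CPM.

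**Figure D2:**
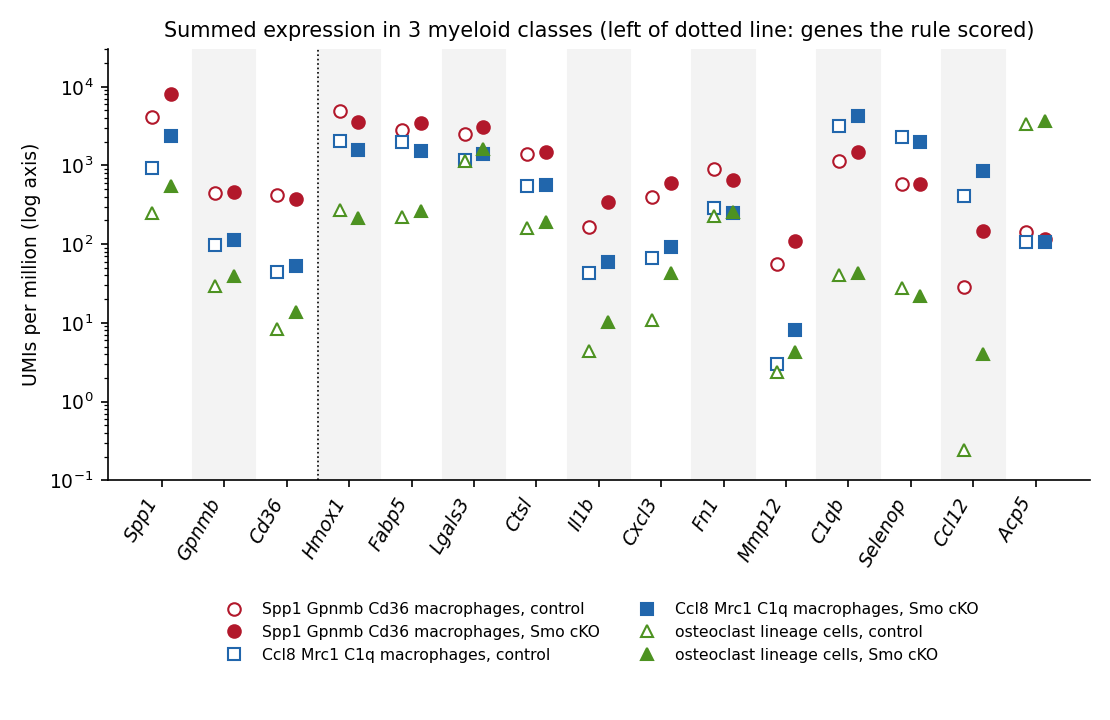
Summed expression (CPM, log axis) of 15 genes in Spp1 Gpnmb Cd36 macrophages (red circles), Ccl8 Mrc1 C1q macrophages (blue squares) and osteoclast lineage cells (green triangles), open for the control and filled for the Smo cKO library. The 3 genes left of the dotted line were scored for the Spp1 Gpnmb Cd36 class. Of these 3 classes, Il1b, Cxcl3 and Mmp12 lie highest in the red circles, and C1qb, Selenop and Ccl12 in the blue squares.

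Lipid handling genes were split. Of 14 compared, 3 passed 2-fold on the higher side and 1 on the lower. Lgals3, which encodes galectin-3, was at 2512 and 3064 against 1165 and 1399 CPM, Cd9, a tetraspanin, at 403 and 342 against 102 and 129 CPM, and Lpl, lipoprotein lipase, at 76.0 and 96.5 against 27.5 and 20.2 CPM. Apoe, the main lipid carrier made by macrophages, went the other way, at 8800 and 10794 against 20108 and 30100 CPM. Trem2, a receptor for lipids and cell debris, was near equal, at 570 and 728 against 623 and 788 CPM. Of 14 matrix remodelling genes, 3 passed 2-fold on the higher side (medians 0.64 and 0.70), namely Mmp12, Sdc1 and Fn1, which encodes fibronectin. Fn1 was at 899 and 658 against 289 and 246 CPM, with 651 and 430 CPM in T cells, and the part of free RNA in it was not tested.

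The lower side held many genes of tissue-resident macrophages that the rule had not scored. Of 12 compared, 9 passed 2-fold on the lower side and 0 on the higher (medians -1.62 and -1.44). Ccl12, a monocyte chemokine, was at 28.6 and 149 CPM against 407 and 847. Selenop, a secreted selenium carrier, was at 576 and 575 against 2304 and 1980 CPM, C1qb, partner of the scored C1qa, at 1147 and 1493 against 3159 and 4218 CPM, and Cx3cr1, the fractalkine receptor, at 38.4 and 59.1 against 101 and 213 CPM. Pf4, a platelet and macrophage chemokine, was the one gene of the list above 0 in both libraries, with 6944 and 7445 against 6609 and 5829 CPM. Cd163, the receptor for hemoglobin bound to haptoglobin, was at 0.894 and 0.381 CPM here and at 46.1 and 8.88 CPM there, below the floor used for the counts here. Of 11 macrophage identity genes, 2 passed 2-fold on the lower side, among them Aif1 (medians of the list -0.65 and -0.72).

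Of 10 listed genes that interleukin-4 can raise in macrophages, 9 were found. Fn1 and Il4ra, a chain of the interleukin-4 receptor (118 and 122 CPM), reached 50 CPM. The other members were low. Retnla was at 0 and 1.14 CPM, where the 0 allows up to 2.68 CPM, Mgl2 at 0 and 0.763, Chil3 at 4.47 and 11.8 and Clec10a at 11.6 and 6.86. Nos2, the inducible nitric oxide synthase, was at 4.47 and 4.19 CPM. Sms, which makes the polyamine spermine, passed 2-fold over the Ccl8 Mrc1 C1q cells, at 93.8 and 65.2 against 44.6 and 27.0 CPM, with 69.1 and 109 CPM in T cells. Of 4 compared genes of the arginine and polyamine list, Sms alone did so. In both libraries 2 of the 4 were above 0 and 2 below (medians -0.04 and 0.07). The monocyte list summed to 1286 and 1024 CPM, against 1088 and 703 CPM in the Ccl8 Mrc1 C1q cells, and was led by Thbs1, which encodes thrombospondin-1, at 665 and 370 against 386 and 196 CPM. Of 3 of its genes that could be compared, 0 passed 2-fold in both libraries (medians 0.76 and 0.92). Besides Thbs1, Clec4e, a receptor for dead cells and microbes, was above 0 in both libraries, at 348 and 322 against 205 and 119 CPM, and F13a1, a subunit of coagulation factor XIII, was below, at 174 and 183 against 384 and 263 CPM. Ly6c2 was at 5.36 and 11.4 CPM and Ccr2, the receptor that draws monocytes into tissue, at 16.1 and 25.5, with 31.3 and 41.2 in the Ccl8 Mrc1 C1q cells. Proliferation genes summed to 304 and 296 CPM, with Mki67 at 27.7 and 19.8.

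Of 13 inflammatory mediators, 3 passed 2-fold on the higher side (Il1b, Cxcl1 and Cxcl3) and 1 on the lower (Ccl4). In both libraries 6 were above 0 and 6 below (medians -0.15 and 0.31). Cxcl2, a further CXCR2 ligand and the one with the most UMIs of the list, was at 3884 and 5262 against 3017 and 3252 CPM. Cxcl1 was at 1128 and 1578 against 504 and 650 CPM, with 375 and 1036 CPM in T cells. The chemokines Ccl3 and Ccl4 were lower, Ccl4 being at 408 and 860 against 1262 and 1834 CPM. Genes of the immediate early and stress response, which digestion of tissue can raise, were lower for all 10 members in both libraries, 3 of them past 2-fold (medians -1.45 and -0.76). Jun was at 185 and 178 against 415 and 416 CPM and Hspa1a at 181 and 127 against 491 and 427 CPM. The part of this response in the other differences was not tested.

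**Figure D3:**
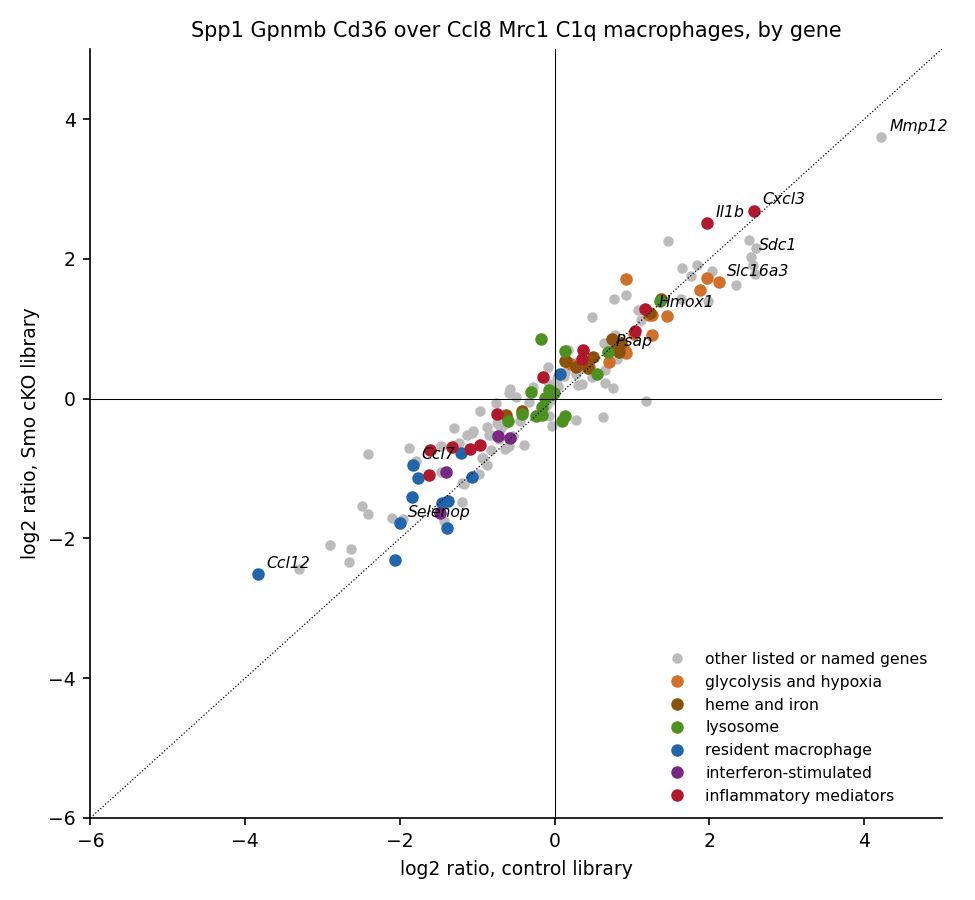
Log2 ratio of Spp1 Gpnmb Cd36 over Ccl8 Mrc1 C1q macrophages in the control (x axis) and Smo cKO library (y axis), 1 point for each listed or named gene at 50 CPM or more and not scored by the rule, colored by list, with the diagonal dotted. Glycolysis and hypoxia genes lie above 0 on both axes and most resident macrophage genes below 0 on both. Lysosomal genes have medians of -0.10 and 0.04, with Ctsl past 2-fold on the higher side.

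Against osteoclast lineage cells, the Spp1 Gpnmb Cd36 macrophages differed over far more of the transcriptome, with 355 of 2549 genes (13.9%) past 2-fold on the higher side in both libraries and 283 (11.1%) on the lower. The median log2 ratios were -0.09 and -0.20, and the osteoclast lineage cells were deeper, at medians of 8958 and 11316 UMIs. All 8 comparable genes of an osteoclast list that the rule had not scored were past 2-fold on the lower side. Ocstamp, needed for osteoclast fusion, was at 1.79 and 0 CPM against 92.6 and 110, Itgb3, the integrin subunit of the osteoclast attachment ring, at 2.68 and 3.81 against 91.4 and 116 CPM, and Nfatc1, the master transcription factor of osteoclasts, at 41.1 and 36.6 against 415 and 361 CPM. Wfdc17, a secreted protein of macrophages, led the higher side at 1794 and 2191 against 23.6 and 43.6 CPM, followed by Ccl3, Cd300a, Ccl4, Pf4, F13a1, Il1b and Ccl6. Of 11 macrophage identity genes, 8 passed on the higher side and 0 on the lower, Cd68 being equal at 376 and 449 against 358 and 428 CPM. Acp5 and Ctsk, both scored by the rule, were at 141 and 117 CPM and at 147 and 51.9 CPM here, against 3328 and 3643 CPM and 3828 and 4190 CPM there.

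The class was also divided by its scored gene Gpnmb. To set cells apart at equal depth, the 251 control and 558 Smo cKO cells with at least 2000 UMIs were thinned to 2000 (86 and 115 shallower cells were left out) and divided by whether Gpnmb was still detected. It was found in 106 control cells (42.2%) and 264 Smo cKO cells (47.3%), and not in 145 and 294. Summed over all their UMIs, cells with Gpnmb held 985 and 893 CPM of it and those without 86.3 and 101 CPM. Spp1 was at 4754 and 9820 CPM in cells with Gpnmb and at 3678 and 6362 CPM in those without, and Cd36 at 366 and 363 against 395 and 345 CPM. Cells without Gpnmb had to pass the rule on its other scored genes, so the division partly follows from the selection. It is a description, without a test.

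Cells with Gpnmb held at least 2-fold more RNA of Fabp5, Fabp4, Wfdc17 and Selenop. All 15 lysosomal genes that could be compared were above 0 in both libraries, with median log2 ratios of 0.62 and 0.71 against -0.02 and -0.08 for all genes, and none of the 15 was past 2-fold in both. Psap, which encodes the precursor of the saposins, was at 6394 and 5397 CPM in cells with Gpnmb and at 2909 and 2891 CPM in those without, Ctsd at 4457 and 4042 against 1933 and 2098 CPM, and Ctsb, which encodes cathepsin B, at 5775 and 6400 against 3234 and 3409 CPM. Lamp1 differed less, with log2 ratios of 0.49 and 0.46. Over the whole list the sums were 27018 and 27161 CPM against 15360 and 15851 CPM. Past 2-fold in both libraries were 11 of 2262 genes (0.486%), Gpnmb itself included. Fabp5, a fatty acid carrier, was at 4481 and 5456 against 1895 and 1855 CPM, and Fabp4, a carrier of the same family, at 173 and 309 against 71.4 and 90.2 CPM. Wfdc17 was at 2661 and 3142 against 1210 and 1364 CPM and Selenop at 791 and 792 against 390 and 384 CPM. Gas6, a ligand of the dead-cell receptor MERTK, had log2 ratios of 2.22 and 0.80.

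Cells without detected Gpnmb held at least 2-fold more RNA of Il1b and Fn1. Il1b was at 169 and 475 CPM in them and at 15.5 and 141 CPM in cells with Gpnmb. Its log2 ratios of cells with over without were -3.45 and -1.75. The 15.5 CPM was taken over 387888 UMIs, so the control ratio rests on few counts. Il1b had a UMI in 14.2% and 20.5% of all cells of the class. Fn1 was at 1149 and 936 against 400 and 329 CPM. Il1b and Fn1 were among the 16 of 2262 genes past 2-fold on this side in both libraries (0.707%), with Inhba, Cxcl14, Cxcl5, Cav1 and Tm4sf1. Of 12 inflammatory mediators, 1 was past 2-fold in both libraries (Il1b), 9 were on this side of 0 in both and 0 on the other (medians -0.33 and -0.94). Cxcl3 was at 389 and 742 against 224 and 313 CPM, Cxcl2 at 4066 and 6606 against 2903 and 3338 CPM, and Ptgs2, the inducible enzyme of prostaglandin synthesis, at 211 and 353 against 106 and 160 CPM. All 15 glycolysis and hypoxia genes compared were on this side of 0 in both libraries (medians -0.37 and -0.47), none past 2-fold in both, with sums of 6298 and 6468 against 4806 and 4934 CPM.

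Markers of other cells moved with this division too. Of 8 fibroblast genes, 7 were higher without Gpnmb in both libraries (medians -0.49 and -0.78). All 4 genes scored for the Ccl8 Mrc1 C1q class were higher with Gpnmb in both libraries (medians 0.57 and 0.80), 1 of them past 2-fold. Of 8 resident macrophage genes, 6 were higher with Gpnmb in both libraries and 1 lower (medians 0.34 and 0.74). Hemoglobin transcripts did not follow the same order in the libraries, Hbb-bs being at 260 CPM with Gpnmb and 2036 without in the control library, and at 2336 and 1756 CPM in the Smo cKO library. The part of all these markers in the other differences was not tested.

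**Figure D4:**
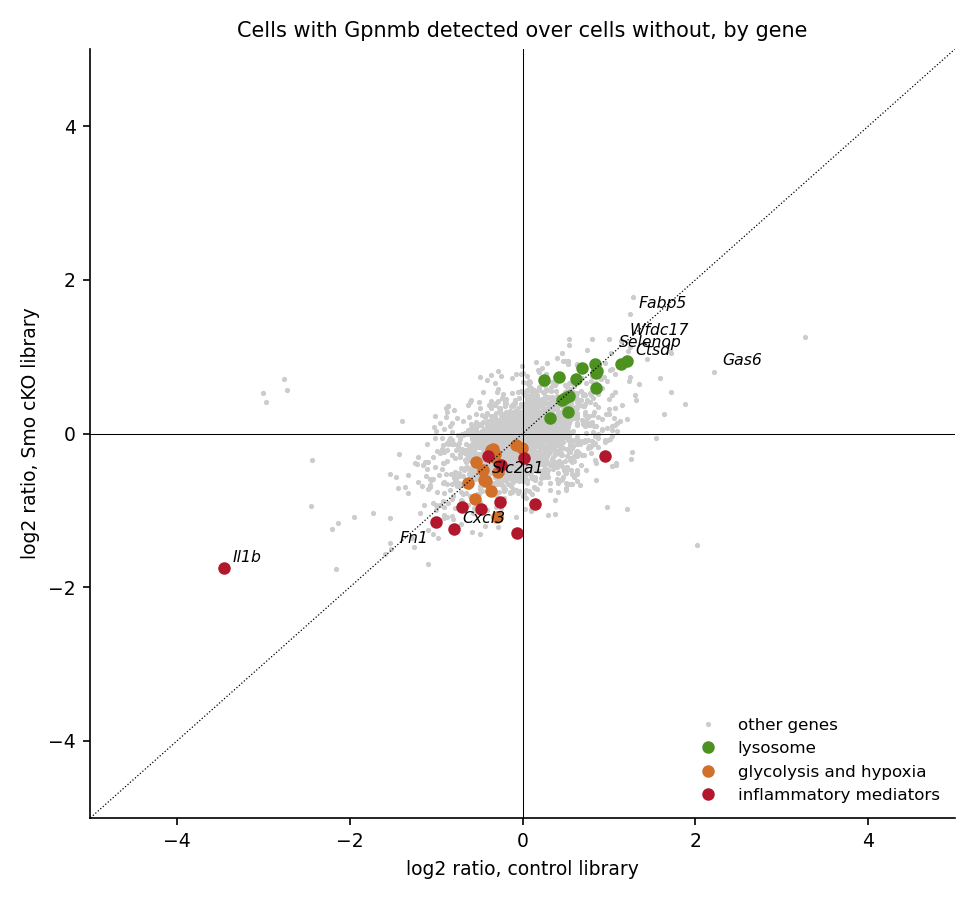
Log2 ratio of cells with Gpnmb detected at 2000 UMIs per cell over cells without, in the control (x axis) and Smo cKO library (y axis), 1 point for each gene other than Gpnmb, with listed lysosomal (green), glycolysis and hypoxia (orange) and inflammatory genes (red). All 15 lysosomal genes lie above 0 on both axes and all 15 glycolysis and hypoxia genes below 0, while 4 hemoglobin genes lie far left with y values above 0.

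Between the genotypes, the highest ratios within the Spp1 Gpnmb Cd36 macrophages were those of interferon-stimulated genes. Isg15, a ubiquitin-like protein made in response to interferon, was at 36.6 CPM among control and 204 CPM among Smo cKO cells (log2 ratio 2.48, interval 2.02 to 2.98). Irf7, a transcription factor of the interferon response, was at 17.0 and 131 CPM, Rtp4 at 8.94 and 82.0, and Ifi27l2a at 375 and 1520. Of 18 listed genes, all 18 were higher in the Smo cKO cells, 12 reached 50 CPM in at least 1 library, and 10 of those were past 2-fold (median log2 ratio 2.15). As only 2 of the 12 reached 50 CPM in the control, the count and the median favour genes that were high in the Smo cKO library. Summed over all 18 genes, the list was at 809.7 and 2915 CPM (log2 ratio 1.85). Over all genes, 43 of 2498 were past 2-fold on the higher side (1.72%) and the median log2 ratio was -0.03. The 12 genes with the highest ratios were Ly6a, Rtp4, Irf7, Xaf1, Oasl2, Isg15, Ccl12, Ms4a4c, Ifi27l2a, Trim30a, Slfn5 and Zbp1. All of them but Ifi27l2a were under 50 CPM in the control and met the floor through the Smo cKO library alone. Detection followed the levels, Isg15 having a UMI in 7.12% of control and 32.2% of Smo cKO cells, against 0% and 9.76% of T cells. Once thinned to 1000 UMIs, the shares were 2.75% and 14.4%, against 0% and 3.90% of T cells. Without the barcodes found in both libraries, 44 genes were past 2-fold on the higher side and 3 on the lower.

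This difference was not particular to these cells. In Ccl8 Mrc1 C1q macrophages, Isg15 was at 49.9 and 237 CPM and the list's median log2 ratio was 1.65 over 14 genes, in osteoclast lineage cells Isg15 was at 11.5 and 138 CPM, and over all cells outside the myeloid ones at 13.2 and 159 CPM. T cells held 0 and 125 CPM of Isg15 and 0 and 54.3 CPM of Irf7, so that either their own expression or free RNA was present in the Smo cKO library. The 0 UMIs in control T cells allow up to 29.6 CPM, above the 17.0 CPM of Irf7 in the control Spp1 Gpnmb Cd36 macrophages. Ifi27l2a was at 434 and 484 CPM and Ly6a at 188 and 255 CPM in T cells, above the control macrophages in both genes. Within the class the interferon list was about even between cells with and without Gpnmb, summing to 758 and 2890 CPM with it and to 789 and 2844 CPM without.

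Of 13 inflammatory mediators, 4 were past 2-fold on the higher side and 0 on the lower (median 0.55). Il1b was at 166 and 343 CPM (log2 ratio 1.04, 0.82 to 1.28) and was detected in 14.2% and 20.5% of cells, against 0% and 3.66% of T cells. Ccl4 was at 408 and 860 CPM, with 19.7 and 45.9 in T cells. In some of the alternatives all 4 were short of 2-fold, Il1b ranging from 0.67 to 1.24, Ccl4 from 0.90 to 1.33, Ccl2 from 0.74 to 1.41 and Ccl5 from 0.89 to 1.49. Ccl12, from the resident macrophage list, was at 28.6 and 149 CPM (2.38, 1.86 to 2.95), and at 407 and 847 CPM in the Ccl8 Mrc1 C1q cells. It had 0 UMIs in T cells, which allows up to 29.6 and 12.5 CPM there. Of 11 compared genes of that list, 2 were past 2-fold on the higher side and 0 on the lower (median 0.38). The list's median was 0.25 in the Ccl8 Mrc1 C1q cells. All 4 genes scored for that class were higher in the Smo cKO cells of the class described here (median 0.54). Mrc1 and C1qa were near even, with log2 ratios of 0.03 and 0.09, and changed sign in some alternatives. Ccl8, at 42.0 and 91.1 CPM, met the floor through the Smo cKO library alone. As the rule scored these genes, their ratios describe the chosen cells. Ccl2 and Ccl5, the other 2 inflammatory mediators past 2-fold, were at 174 and 410 and at 29.5 and 67.1 CPM. Ccl5 met the floor through the Smo cKO library alone. T cells held more, 365 and 998 CPM of Ccl2 and 997 and 1574 CPM of Ccl5. Ccl7 at 214 and 443 CPM stood likewise below 888 and 710 CPM in T cells. T cells can make Ccl5 themselves, and the part of free RNA in these 3 genes was not tested. Of 11 macrophage identity genes, 1 was past 2-fold, Fcgr1, the high-affinity receptor for IgG, at 50.9 and 107 CPM, and it was short of 2-fold in some alternatives (0.86 to 1.63). The immediate early and stress list, which digestion of tissue can raise, summed to 1257 and 1597 CPM (log2 ratio 0.35). Of its 10 genes, 7 were higher and 3 lower in the Smo cKO cells. Over the 9 at 50 CPM the median was 0.46, against -0.20 over 10 in the Ccl8 Mrc1 C1q cells, and 0 were past 2-fold. The part of this response in the differences between the libraries was not tested.

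**Figure D5:**
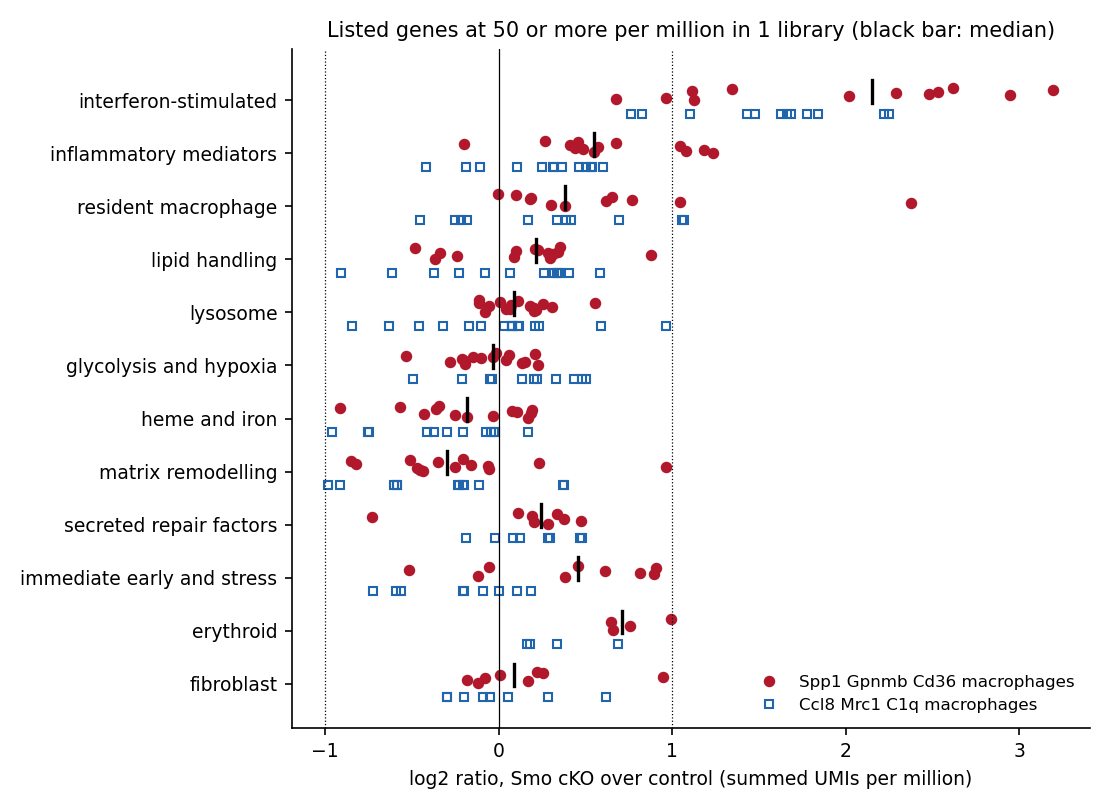
Log2 ratio of Smo cKO over control (x axis, from summed CPM) for listed genes at 50 CPM or more in 1 library, by list, in Spp1 Gpnmb Cd36 macrophages (red circles, median as a black bar) and Ccl8 Mrc1 C1q macrophages (blue squares), with dotted lines at 2-fold. The interferon-stimulated genes have a median of 2.15, with 2 of the 12 plotted at 50 CPM or more in the control, and the lysosomal genes one of 0.09, with all 16 at that level in the control.

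On the lower side 3 of 2498 genes were past 2-fold (0.12%). Ctsk, which encodes cathepsin K, the collagen-cutting protease of osteoclasts, was at 147 and 51.9 CPM (log2 ratio -1.51, -1.85 to -1.17). It was scored by the rule for osteoclast lineage cells, which were a larger share of the control library and held 3828 and 4190 CPM of it, and in T cells it stood at 39.5 and 71.0 CPM. Atp6v0d2, another gene of that set, was at 29.5 and 11.4 CPM. Gdpd3, a lysophospholipase D, was at 132 and 46.9 CPM, with 258 and 53.3 CPM in the Ccl8 Mrc1 C1q cells, and Aig1 was at 71.5 and 33.2 CPM. Over 14 alternative ways of choosing or summing the cells, Gdpd3 stayed between -1.65 and -1.35, whereas Ctsk reached -0.59 and Aig1 -0.93, short of 2-fold. Nearest to 2-fold without reaching it were Otulin, Ankrd12, Herpud1, Slc7a11, Thbs1, Serinc3, Rassf3, Sdc1, Dapk1 and Enpp1, in the range of -0.95 to -0.81. Thbs1 was at 665 and 370 CPM and Slc7a11 at 473 and 251 CPM. Their log2 ratios were -0.85 and -0.91, beside -0.98 and -0.96 in Ccl8 Mrc1 C1q cells. The count of 3 was small enough to depend on the cells taken, reaching 14 when cells were thinned to 2000 UMIs before scoring.

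In the lists of lysosomal, glycolysis and hypoxia, heme and iron, lipid handling, matrix remodelling and secreted repair genes, no gene was past 2-fold between the libraries with the cells as chosen. In some alternatives Mmp12 (up to 1.70) and Fabp4 (up to 1.32) passed on the higher side and Slc7a11 (to -1.12), Thbs1 (to -1.13) and Sdc1 (to -1.002) on the lower. The 16 lysosomal genes had a median log2 ratio of 0.09, with summed levels of 20322 and 21485 CPM. The 15 glycolysis and hypoxia genes had a median of -0.03, with sums of 5740 and 5783 CPM. Heme and iron genes had a median of -0.18 over 13 genes, Hmox1 being at 4871 and 3616 CPM, and lipid handling genes one of 0.22 over 14, Fabp5 being at 2802 and 3482 CPM. In the matrix remodelling list the median of 14 genes was -0.30, and 2 of them, Mmp12 being one, lay above the median of all genes. Secreted repair factors had a median of 0.25 over 8 genes. Among them Igf1, an insulin-like growth factor, was at 126 and 175 CPM, and Cxcl16, a chemokine and scavenger of oxidized lipid, at 357 and 435.

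Markers of other cells differed between the libraries too. The summed erythroid list was at 2475 and 4016 CPM in these macrophages, led by Hbb-bs at 1244 and 1947 CPM, which was at 3296 and 5438 CPM over all cells and at 385 and 702 CPM in T cells. Its log2 ratio of 0.65 ranged from 0.07, without cells of over 2000 genes, to 2.56, with a score above 0.5. The fibroblast list summed to 4375 and 4533 CPM, the muscle list to 70.6 and 139 CPM with Myog first, and the neutrophil list to 91.2 and 145 CPM with S100a8 first. The dendritic list stood at 61.7 and 50.3 CPM, T and NK markers at 114 and 95.7 CPM with nearly all of it Il7r, B cell markers at 1.79 and 5.72, endothelial markers at 7.15 and 15.3 and mast cell markers at 2.68 and 1.14 CPM. Of the 8 T and NK markers, 4 and 2 were at 0 UMIs. Their part in the differences between the libraries was not tested.

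The gene that the study deleted was close to the limit of detection in these cells. Smo had 2 and 5 UMIs in them (1.79 and 1.91 CPM), while over all cells it was at 17.2 and 10.7 CPM (log2 ratio -0.69, -0.80 to -0.59), lower in the library labelled Smo cKO. The reporter TdTomato had 1 and 4 UMIs and Sox9, after which the Cre driver is named, 7 and 15 UMIs in the macrophages. Gli1, the transcription factor induced by Hedgehog signaling, and its target Hhip had 0 UMIs in both libraries, which allows up to 2.68 and 1.14 CPM at 3 counts. Ptch1, the Hedgehog receptor and also a target, was at 4.47 and 3.05 CPM. A difference in Hedgehog genes was thus not detectable in these cells at this depth.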

How the data were processed

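Single-cell libraries (10x Genomics) were made from rib callus at 4 dpi, 1 per genotype. The authors deposited filtered matrices of UMI counts per gene and cell. Cell Ranger 3.0.2 and mm10 are named in the submitters' processing notes. The counts were used as deposited (31054 features, with coordinates from GRCm38), and 0 columns of values could not be matched to a sample. The scoring rule for the myeloid classes is given above, and 1 gene it scored for the Spp1 Gpnmb Cd36 class is not reported here. The members and the gene lists were chosen with earlier results of these data known.

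UMIs were summed over the cells of a class in each library and expressed as CPM. With 1 library per genotype no test was made. Ratios carry exact Poisson intervals, shares Clopper-Pearson and their differences Newcombe intervals, at 95%, and all of these, like the limit that a count of 0 allows (3 counts), cover counting error only. A gene counted as past 2-fold had at least 50 CPM in 1 library, for classes compared within libraries in the class where it was higher, in both libraries. Named genes were those of 31 lists (313 genes, 311 of them found) and, outside the genes scored, the 12 highest and 12 lowest ratios between libraries, the 15 highest and 10 lowest over Ccl8 Mrc1 C1q cells and the 8 highest and 8 lowest over osteoclast lineage cells. Detection was compared after thinning cells to 1000 UMIs, and the division by Gpnmb, which was chosen after seeing the data, after thinning to 2000. Alternatives changed the filters, scaling, score genes, depth and CPM floor. Python 3.11.15, numpy 2.4.6, scipy 1.17.1, pandas 2.3.3 and matplotlib 3.10.9 were used, and the scripts were tested on simulated data.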

Additional observations from a re-analysis of the deposited data

Results flagged for a closer look

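Among listed and named genes, 171 were compared. For 10 of them, the ratio of Smo cKO over control had opposite signs in Spp1 Gpnmb Cd36 and Ccl8 Mrc1 C1q macrophages. The counting interval left out 0 in each class. The lists were chosen with earlier results known and no such count was made over all genes, so the 10 have no background share. With 1 library per genotype, the difference between the classes was not tested. Among genes with a higher value in the Smo cKO library in the Spp1 Gpnmb Cd36 cells and a lower one in the Ccl8 Mrc1 C1q cells, Egr1, an immediate early transcription factor, had the widest gap in log2 ratio, 1.62 (0.90 against -0.72), followed by Fosb at 1.17 (0.61 against -0.56), the chemokine Ccl6 at 0.71 (0.33 against -0.38), the fatty acid carrier Fabp5 at 0.69 (0.31 against -0.37) and the stress factor Atf3 at 0.58 (0.38 against -0.20). Lgmn, which encodes the lysosomal protease legumain, and Pf4 each differed by 0.28 (0.11 against -0.17 and 0.10 against -0.18).

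Among genes with the opposite pattern, Inhba, a subunit of activin A, differed by -1.21 (-0.73 against 0.48), Timp1, an inhibitor of metalloproteases, by -0.89 (-0.51 against 0.38), and Cd9 by -0.58 (-0.24 against 0.34). Over the 14 alternatives the ratio in the Spp1 Gpnmb Cd36 cells changed sign for Inhba (-0.83 to 0.38) and Timp1 (-0.53 to 0.15), so that their direction depends on the cells taken. T cells of the same libraries held more RNA of Inhba (424 and 393 CPM) and Timp1 (434 and 885 CPM) than the macrophages. The same held for Egr1 (118 and 150 CPM). In the Spp1 Gpnmb Cd36 cells, Egr1 was at 36.6 and 68.3 CPM and met the floor through the Smo cKO library alone.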

How the results depend on the processing

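No paired analysis was possible because the labels give no replicate numbers, with 1 library per genotype. The difference in share of 10.9 points was 4.27 with z-scores within each library and 8.08 without Spp1 in the score, and lay between 9.72 and 13.02 in the other 9 settings tried. The 43 genes past 2-fold on the higher side in the Smo cKO cells became 110 with a floor of 20 CPM and 19 with one of 100 CPM. The 3 on the lower side became 5 with a score above 0.5, 8 without cells of over 2000 genes, 6 with collagen under 0.5%, 11 with z-scores within each library, 5 without Spp1 and 6 without Gpnmb in the score, 14 after thinning to 2000 UMIs, 7 without the deepest 10% of cells, 45 with a floor of 20 CPM and 12 with the mean of per-cell CPM. Over Ccl8 Mrc1 C1q macrophages, the 43 higher and 74 lower genes became 68 and 117 with a floor of 20 CPM. The other 59 of these values stayed within 1.5 times the first count or, for the share, within its interval. Of 3094 values for genes and lists under these settings, 2627 stayed within the gene's counting interval or the spread of its list, 467 moved beyond it, and 0 of those past 2-fold turned direction. Leaving out the barcodes shared by the libraries was chosen after seeing the data. Depth limits genes under about 50 CPM, and the causes of these shifts were not tested.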
